A study of Rattus norvegicus with 16 samples.

Results

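The retinoid genes described here are 9 rat genes that carry, import, oxidise or respond to vitamin A: Crabp1, Crabp2, Rbp2, Stra6, Dhrs9, Aldh1a1, Aldh1a2, Rara and Rarb. They were taken by name, and 8 of the 9 had a probe on the array, each with 1 probe, among 30367 probes and 15159 named genes. Rarb was not analysed here. The RNA came from normal tissue of the distal colon of 16 male (ACIxF344)F1 rats, 97 days old, with 4 rats in each of 4 groups. Pirc/+ rats carry a mutant allele of Apc and Apc wild type rats (here wildtype) do not. Within each genotype the rats were either untreated or given 4% DSS (dextran sodium sulfate, which injures the colon lining) in the drinking water from 40 to 47 and from 54 to 61 days of age, so the tissue was taken 36 days after the last DSS. Levels are log2 signals relative to the 75th percentile of the same array, so 0 is that percentile and each unit is a doubling. Differences are between group means on this scale, given with the standard error of a linear model (limma) over all 16 arrays. A gene is said to be called when its p, adjusted over all probes, was at most 0.05 and its change at least 2-fold. The genes were picked from earlier results of these same arrays, with their group differences in level in view, so those differences and the counts of calls are descriptions, without a p-value.

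Retinol enters cells through the membrane receptor STRA6 and is held in the cytoplasm by retinol-binding proteins. Short-chain dehydrogenases such as DHRS9 oxidise it to retinal, and the retinaldehyde dehydrogenases of the ALDH1A family oxidise retinal to retinoic acid. The binding proteins CRABP1 and CRABP2 carry retinoic acid, CRABP2 to the nucleus, where it binds the receptors RARA, RARB and RARG paired with RXR. In the gut, retinoic acid made by epithelium, stroma and dendritic cells is known for directing lymphocytes to the intestine, and in stratified epithelia it restrains keratinisation.

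The 12 measured colon epithelium markers of 14 listed, among them Cdx2, Vil1 and Krt20, were well above background in all 16 rats. After DSS, 0 were called higher and 1 lower in Pirc rats, Slc26a3 at -1.72, and 0 were called in wildtype rats. In Pirc rats 5.51% of all probes were called higher and 1.95% lower. The 75th percentile of the raw signal ran from 875 to 2194 over the arrays, 71.1% to 80.3% of spots exceeded background clearly, and saturation was absent. All 16 arrays measured 6 of the 8 retinoid genes well above background. Crabp1 was not on any, and Aldh1a2 was in DSS-treated rats only. DSS-treated wildtype rats differed widely from each other: rat 26 lay near the untreated rats for several of these genes and rat 22 apart from rats 14 and 18. The wildtype DSS results of Crabp2, Aldh1a1 and Aldh1a2 are therefore also described without rat 26 and without rat 22.

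Among the retinoid genes, Crabp2, Aldh1a2 and Stra6 were called higher and Aldh1a1 lower in Pirc rats after DSS, 4 of 8, where 7.46% of all probes were called. In wildtype rats none of the 8 was called after DSS, where 2.77% of all probes were. Untreated Pirc and wildtype rats gave no call among them or among all probes (0%). After DSS, Crabp2 and Stra6 were called higher in Pirc than in wildtype rats, 2 of 8, against 5.47% of all probes. The difference between the DSS effects of the genotypes gave no call among the 8, against 0.0428% of all probes. These comparisons share groups of rats, and the shares of members called say nothing further, since the members were chosen with such results in view. Treated and untreated rats did not overlap for 4 of the 8 genes in Pirc and for 2 in wildtype rats, where 16.9% and 12.4% of all probes had no overlap. Between the genotypes that held for 1 gene untreated and 1 after DSS, where 8.72% and 18.8% of all probes had none. The median difference over the 8 genes was 0.68 in Pirc and 0.21 in wildtype rats after DSS, beside 0.04 and 0.09 over all probes.

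**Figure D1:**
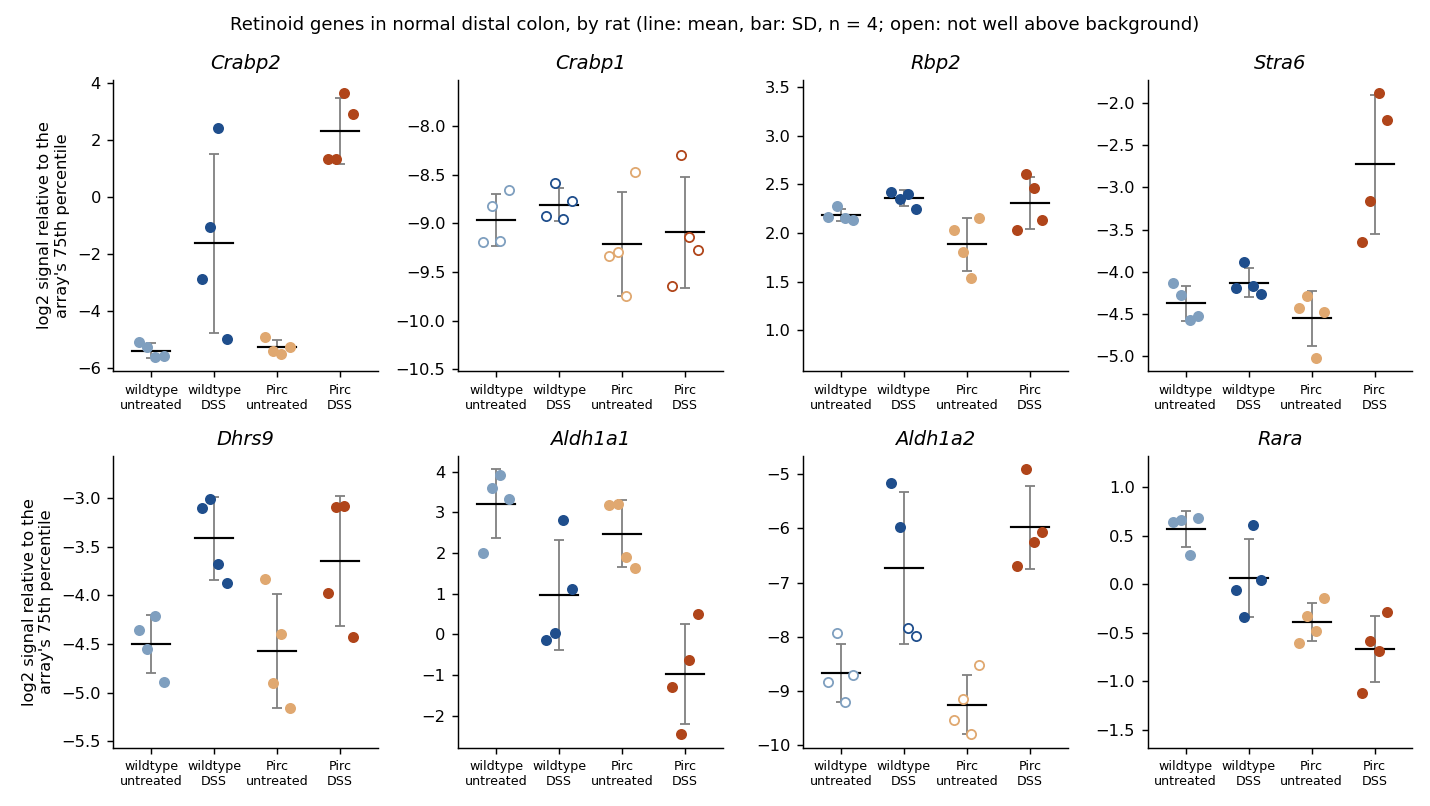
Level of the 8 measured retinoid genes in each rat (vertical axis, log2 signal relative to the array's 75th percentile; each panel has its own range) by genotype and treatment, with the mean and SD of 4 rats. Crabp2 stood between 1.35 and 3.66 in DSS-treated Pirc rats and between -4.97 and 2.45 in DSS-treated wildtype rats, open circles mark values not well above background, and Rbp2 and Crabp1 showed little difference between groups.

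Crabp2, the carrier that hands retinoic acid to its nuclear receptor, had the largest difference of the 8 genes. In untreated Pirc rats 11, 15, 19 and 23 its level was -4.89, -5.38, -5.49 and -5.26, and in untreated wildtype rats 13, 17, 21 and 25 it was -5.06, -5.24, -5.60 and -5.58. In DSS-treated Pirc rats 12, 16, 20 and 24 the level was 1.36, 1.35, 3.66 and 2.92. All 4 lay far above every untreated rat, and the difference was 7.58 ± 1.09 on the log2 scale (SE, 4 rats a group), a 191-fold rise. In DSS-treated wildtype rats 14, 18, 22 and 26 it was -2.88, -1.03, 2.45 and -4.97. Those 4 were also above every untreated wildtype rat, but rat 26 only just, and rat 22 reached the range of the Pirc rats. The wildtype difference of 3.76 ± 1.09 was not called with all rats. Without rat 26 it was 4.88 and called, and without rat 22 it was 2.41 and not called. After DSS, Pirc exceeded wildtype rats by 3.93 ± 1.09, by 2.81 without rat 26 and by 5.28 without rat 22. This call was lost without DSS-treated wildtype rat 14 or DSS-treated Pirc rat 20, and with only the compared groups in the fit. The DSS difference of Pirc rats exceeded that of wildtype rats by 3.81 ± 1.54, which was not called (2.69 without rat 26 and 5.16 without rat 22). On the first slide the DSS difference in Pirc rats was 6.49 and on the second 8.66, and in wildtype rats it was 3.19 and 4.34.

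The level of Crabp2 moved with markers of stratified squamous epithelium, the layered lining of skin and oesophagus that normal distal colon lacks. Of 13 such markers 11 were measured, and 7 rose in Pirc rats and 3 in wildtype rats after DSS by the same test. The keratin gene Krt13 was among them in both genotypes, and it was not well above background in any untreated wildtype rat. Ivl was not well above background in any rat, Dsc3 in at most 1 rat of a group, and Serpinb5 differed by 0.34 in Pirc and 0.47 in wildtype rats. Tp63, a transcription factor of basal squamous cells, was the brightest of the list in untreated rats. Its group means lay between 1.78 and 2.09, and it differed after DSS by 0.00067 in Pirc and 0.06 in wildtype rats. The summed signal of the 11 markers, in units of the 75th percentile, was 4.64 to 5.86 in untreated Pirc and 5.24 to 5.86 in untreated wildtype rats. Most of this untreated sum came from Tp63 and Serpinb5, neither of which was called after DSS. In DSS-treated Pirc rats 12, 16, 20 and 24 the sum was 32.7, 58.1, 132 and 99.9, and in DSS-treated wildtype rats 14, 18, 22 and 26 it was 8.89, 13.03, 83.0 and 5.80. Ranked by either measure, the 8 treated rats stood in the same order except that rats 12 and 16 changed places. The part of squamous cells in the Crabp2 result was not tested. In such bulk tissue, more cells of a type and more RNA per cell cannot be told apart. The genes whose pattern over the 16 rats was most like that of Crabp2, by the root mean square difference of centred log2 levels among 11475 named genes, were Rhcg (0.42), Gjb6 (0.47) and Serpinb10 (0.48), beside an SD of 3.59 for Crabp2 itself. Rhcg, an ammonium transporter, differed after DSS by 7.01 in Pirc and 3.98 in wildtype rats, and Gjb6, a connexin, by 6.54 and 3.29.

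**Figure D2:**
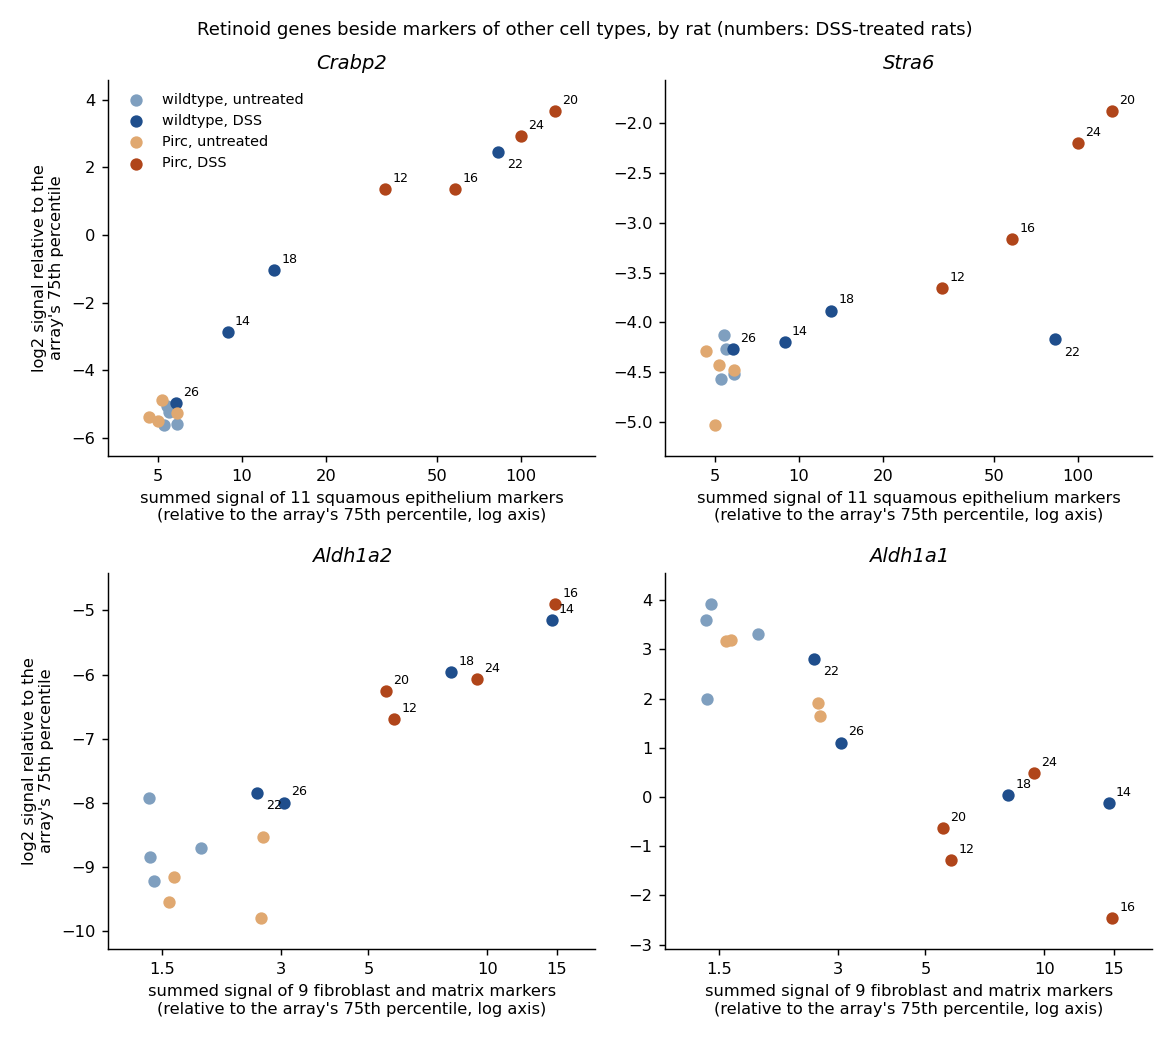
Levels of Crabp2 and Stra6 (vertical axis, log2 signal relative to the array's 75th percentile) against the summed signal of 11 squamous epithelium markers, and of Aldh1a2 and Aldh1a1 against that of 9 fibroblast and matrix markers (horizontal log axes), 1 point a rat, with DSS-treated rats numbered. Crabp2 followed the squamous sum in treated rats of both genotypes, whereas rat 22, with a squamous sum of 83.0, had Stra6 at -4.17, within the range of the untreated rats. The marker list shown for each gene was chosen after its values were seen.

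Crabp1, the other retinoic acid carrier, stayed between -9.74 and -8.30 and was not well above background in any of the 16 rats, so no fold is given. Rbp2, a retinol carrier best known from absorptive cells of the small intestine, lay between 1.54 and 2.61 in every rat. Its DSS difference was 0.43 ± 0.15 in Pirc and 0.17 ± 0.15 in wildtype rats, and the treated and untreated groups overlapped in both. Of the 10 small intestinal enterocyte markers measured, none was called higher and 1 was called lower after DSS in each genotype. That 1 was Mttp, which was well above background in 2 untreated Pirc rats and in no other rat. Without overlap, 4 were higher and 2 lower in wildtype rats, and 1 was higher and 0 lower in Pirc rats, where 12.4% and 16.9% of all probes had none. The median difference of the 10 was 0.76 in wildtype and 0.36 in Pirc rats.

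The start of Crabp2 is shown because this gene moved most, and that of Aldh1a1 because it is the member that fell. RefSeq gives all 9 genes a start site in the GRCr8 build, among 33469 rat promoters of 300 bases, 250 before the start and 50 after it. Below are the 250 bases before the start of Crabp2 at chr2:175714612-175714861 and of Aldh1a1 at chr1:227537370-227537619, both on the plus strand, 5′ to 3′, with TATAAA and CCAAT on either strand in capitals.
Crabp2: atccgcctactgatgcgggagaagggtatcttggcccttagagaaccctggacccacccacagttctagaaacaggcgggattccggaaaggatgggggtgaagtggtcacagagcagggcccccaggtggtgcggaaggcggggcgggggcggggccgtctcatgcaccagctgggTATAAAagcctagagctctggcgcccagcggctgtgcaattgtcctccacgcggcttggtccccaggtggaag
Aldh1a1: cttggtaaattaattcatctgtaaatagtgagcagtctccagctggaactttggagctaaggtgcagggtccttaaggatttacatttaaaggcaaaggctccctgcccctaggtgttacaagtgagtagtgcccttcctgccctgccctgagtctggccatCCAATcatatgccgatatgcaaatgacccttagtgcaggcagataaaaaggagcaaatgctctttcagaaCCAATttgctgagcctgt
TATAAA stood once in the Crabp2 window, 73 bases before the start, and it was found in 14.2% of all promoters. CCAAT stood at 88 and 18 bases before the start of Aldh1a1, and 37.5% of all promoters held it. Retinoic acid receptors bind a short site that stands as a direct repeat. Repeats of AGGTCA or AGTTCA or GGGTCA or GGTTCA, each able to pair with any of these, were searched on both strands with a spacing of 1, 2 or 5 bases between the repeated sites. They were found in 0.233%, 0.17% and 0.382% of all promoters. Of the 9 genes, Rarb alone held one, at spacing 5, from 25 bases after its start (chr15:11336416-11336432, plus strand). Of 42 further pathway genes with a promoter, Cyp26a1, a retinoic acid hydroxylase, held one, also at spacing 5, from 92 bases before its start on the opposite strand (chr1:244883730-244883746). Both are printed with the repeated sites in capitals, since they are the 2 matches among these genes.
Rarb: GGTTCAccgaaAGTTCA
Cyp26a1: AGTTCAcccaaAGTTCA
The windows of the 8 measured genes, Crabp2 and Aldh1a1 among them, held no such repeat, which says only that these letters are not in those 300 bases. Cyp26a1 itself differed after DSS by 0.45 ± 0.23 in Pirc rats (limma adjusted p = 0.217) and by -0.00017 ± 0.23 in wildtype rats, with levels of -5.75 to -4.43 over all 16 rats.

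Stra6, the membrane receptor for the plasma retinol carrier, was called higher in Pirc rats after DSS. Its level was -4.42, -4.29, -5.02 and -4.48 in untreated Pirc rats 11, 15, 19 and 23, and -3.65, -3.17, -1.88 and -2.20 in DSS-treated Pirc rats 12, 16, 20 and 24. The treated Pirc rats were all above the untreated, with rats 20 and 24 highest, and the difference was 1.83 ± 0.31. In wildtype rats the levels were -4.13, -4.27, -4.57 and -4.52 untreated (rats 13, 17, 21 and 25) and -4.19, -3.88, -4.17 and -4.27 after DSS (rats 14, 18, 22 and 26). These overlapped, with a difference of 0.24 ± 0.31. After DSS, Pirc exceeded wildtype rats by 1.40 ± 0.31 without overlap, a call lost with normexp (0.88) and with only the compared groups in the fit. The difference between the 2 DSS effects was 1.58 ± 0.44, which was not called. The DSS difference in Pirc rats was 0.95 on the first slide and 2.71 on the second, and it stayed called when any 1 rat was left out. Rat 22 had a high squamous sum and a high Crabp2, with Stra6 in the untreated range. Markers of urothelium, the bladder lining, moved in the same group: 3 of the 4 measured were called higher by limma in Pirc rats after DSS, and 0 in wildtype rats, where none had an unadjusted p under 0.05 either. Their summed signal was 0.21 to 0.27 in untreated Pirc, 0.60 to 3.11 in DSS-treated Pirc, 0.21 to 0.28 in untreated wildtype and 0.23 to 0.38 in DSS-treated wildtype rats, with Upk2 not well above background in any rat. Their part in the Stra6 result was not tested. The patterns most like Stra6 were Eya2 (0.24), Lypd2 (0.25) and Rab34 (0.31), root mean square differences beside an SD of 0.85 for Stra6.

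Aldh1a1 and Aldh1a2, both enzymes that make retinoic acid from retinal, went opposite ways. Aldh1a1 was at 3.18, 3.20, 1.90 and 1.64 in untreated Pirc rats 11, 15, 19 and 23 and at 1.99, 3.61, 3.92 and 3.32 in untreated wildtype rats 13, 17, 21 and 25. In DSS-treated Pirc rats 12, 16, 20 and 24 it was at -1.28, -2.46, -0.63 and 0.49. Every treated Pirc rat lay below every untreated one, and Aldh1a1 fell by 3.45 ± 0.71 on the log2 scale, to a level 10.9-fold lower. In DSS-treated wildtype rats 14, 18, 22 and 26 it was at -0.13, 0.04, 2.81 and 1.11. Rat 22 stayed within the untreated range, and the difference of -2.25 ± 0.71 was not called; without rat 22 it was -2.87 and called. Without rat 26 it was -2.30 and not called. In Pirc rats the difference was -5.06 on the first slide and -1.84 on the second, and in wildtype rats -2.84 and -1.66.

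Aldh1a2 was not well above background in any untreated rat. Its measured level was -9.54, -9.16, -9.80 and -8.53 in untreated Pirc rats 11, 15, 19 and 23 and -8.84, -7.93, -9.22 and -8.71 in untreated wildtype rats 13, 17, 21 and 25. In DSS-treated Pirc rats 12, 16, 20 and 24 it was well above background at -6.69, -4.91, -6.26 and -6.07. The measured difference was 3.27 ± 0.58. The level in treated Pirc rats was at least 7.38-fold higher when their mean was set against the dimmest signal well above background on each untreated array, or the rat's own value where that was higher. This bound depends on the floor: with all values below -7.31 raised to it, the highest of the arrays' dimmest clear signals, the difference was 1.33. With the background correction normexp it was 0.45 and the call was lost. In DSS-treated wildtype rats it was -5.15 and -5.96 in rats 14 and 18, and -7.84 and -8.00 in rats 22 and 26, where it was not well above background. The groups overlapped in wildtype rats because untreated rat 17 stood at -7.93. The measured difference of 1.94 ± 0.58 was not called, and with the common floor it was 0.88. It was called without rat 26, at 2.36, and also without rat 22.

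Aldh1a2 moved with markers of fibroblasts and their matrix, all 9 of which were measured, and of which 9 rose in Pirc and 5 in wildtype rats after DSS. Their summed signal was 1.56 to 2.71 in untreated Pirc and 1.39 to 1.88 in untreated wildtype rats, where 2 and 3 of the 9 were not well above background. It was 5.81, 14.8, 5.54 and 9.43 in DSS-treated Pirc rats 12, 16, 20 and 24, and 14.6, 8.11, 2.61 and 3.05 in DSS-treated wildtype rats 14, 18, 22 and 26. Rats 16 and 14 were highest and rats 22 and 26 lowest by both measures, a different order from that of Crabp2. Aldh1a1 was lowest in rat 16, which had the highest fibroblast sum, and among treated rats it was highest in rats 22 and 26, which had the lowest. Intestinal dendritic cells are known to express Aldh1a2. Of 6 measured markers of dendritic cells, 2 were called higher by limma in Pirc and 0 in wildtype rats, where 2 had an unadjusted p under 0.05. Their summed signal was 0.051 to 0.085 in untreated Pirc, 0.071 to 0.13 in DSS-treated Pirc, 0.051 to 0.079 in untreated wildtype and 0.060 to 0.093 in DSS-treated wildtype rats. Xcr1 was not well above background in any rat. Clec9a, 1 of the 2 called in Pirc rats, was well above background in 1 treated Pirc rat and in no other rat. Of the 2 measured mesothelium markers, Msln was called higher in Pirc rats and Wt1 was not. The part of these cell types in the Aldh1a1 and Aldh1a2 results was not tested. The patterns most like Aldh1a2 were Nsg1 (0.43), Epdr1 (0.47) and S100a4 (0.50), beside its SD of 1.60. Those most like Aldh1a1 were farther from it, Akr1c15 (0.80), Tnni1 (0.85) and Ccdc146 (0.95), beside its SD of 1.92. Only genes well above background on every array of at least 1 group were compared. Aldh1a2 met this in DSS-treated Pirc rats alone, so its match rests partly on untreated values near background.

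Dhrs9, a dehydrogenase that oxidises retinol, stood at -3.83, -4.90, -4.39 and -5.16 in untreated Pirc rats 11, 15, 19 and 23, and at -3.97, -3.09, -3.09 and -4.42 in DSS-treated Pirc rats 12, 16, 20 and 24. These groups overlapped, with a difference of 0.93 ± 0.34. In wildtype rats it stood at -4.35, -4.55, -4.21 and -4.89 untreated (rats 13, 17, 21 and 25) and at -3.10, -3.01, -3.68 and -3.87 after DSS (rats 14, 18, 22 and 26). All treated wildtype rats, rat 26 included, were above the untreated, with a difference of 1.09 ± 0.34. Neither difference was called with all rats. Dhrs9 was 1 of 2 members with no overlap between the wildtype groups, the other being Crabp2, and 12.4% of all probes had none there.

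Rara, the receptor that most cells use for retinoic acid, had its largest difference between the genotypes. Its level was -0.60, -0.33, -0.49 and -0.14 in untreated Pirc rats 11, 15, 19 and 23 and 0.64, 0.66, 0.30 and 0.68 in untreated wildtype rats 13, 17, 21 and 25. Every untreated Pirc rat was below every untreated wildtype rat, by 0.96 ± 0.21 on average, at a comparison in which 8.72% of all probes had groups that did not overlap and 0% were called. After DSS it was -1.12, -0.58, -0.69 and -0.29 in Pirc rats 12, 16, 20 and 24 and -0.06, -0.34, 0.61 and 0.04 in wildtype rats 14, 18, 22 and 26. These overlapped by rats 24 and 18, with Pirc lower by a difference of -0.73 ± 0.21. That difference passed the adjusted p but not the 2-fold minimum, so Rara was not called. The DSS difference was -0.28 ± 0.21 in Pirc and -0.51 ± 0.21 in wildtype rats. On the first slide the untreated genotypes differed by -1.11 and on the second by -0.80. Each group lay in 1 column of the slides, so array column and group cannot be told apart.

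**Figure D3:**
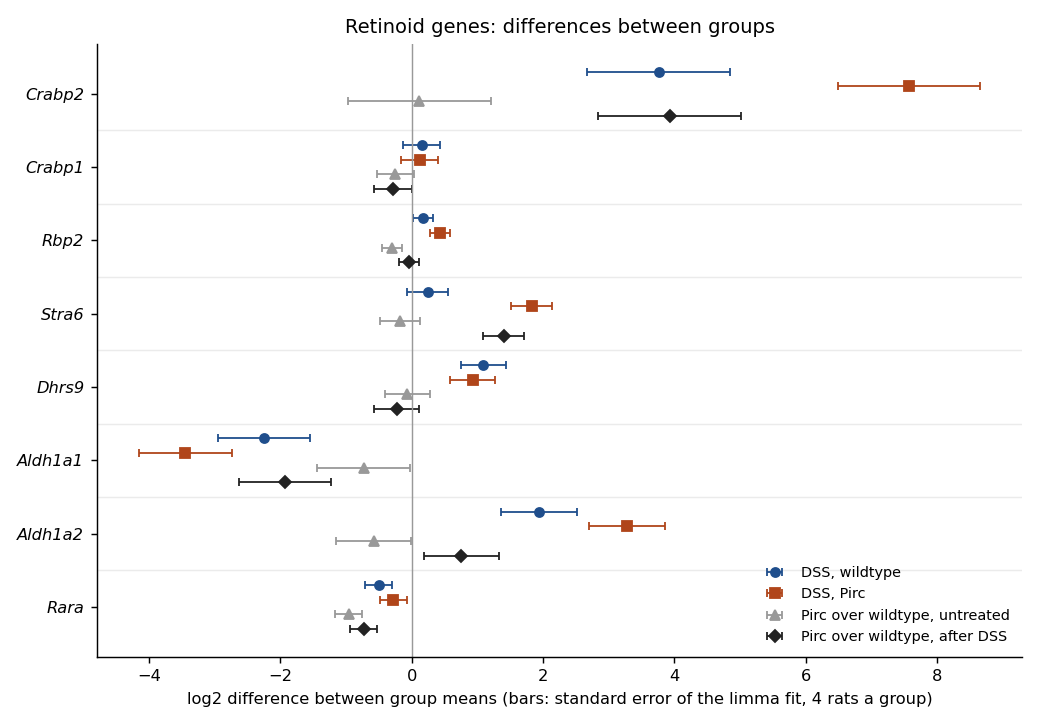
Log2 differences between group means for the 8 measured retinoid genes (horizontal axis; bars are the standard error of the limma fit, 4 rats a group) in 4 comparisons that share groups. Crabp2 had the largest DSS difference in Pirc rats, 7.58, Stra6 differed with DSS by 1.83 in Pirc and 0.24 in wildtype rats, and Rara had its largest difference, -0.96, between untreated Pirc and wildtype rats.

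A further 61 genes of the retinoid pathway were listed by role, with earlier results of these arrays known, and 50 were measured. After DSS, 11 were called higher and 2 lower in Pirc rats, beside 5.51% and 1.95% of all probes, and 6 were called higher and 0 lower in wildtype rats, beside 2.37% and 0.402%. At any size, 16 of the 50 in Pirc and 6 in wildtype rats passed the adjusted p of limma, beside 14.7% and 3.84% of all probes. The list's median difference was 0.17 in Pirc and 0.14 in wildtype rats, near the 0.04 and 0.09 of all probes. Between untreated genotypes limma called no pathway gene, and 5 had an unadjusted p under 0.05. After DSS 1 was higher and 2 lower in Pirc than in wildtype rats, beside 3.10% and 2.37% of all probes. None was called by limma for the difference between the DSS effects, and 3 had an unadjusted p under 0.05.

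Among the carriers, Fabp5, which can deliver retinoic acid to PPARD instead of the RARs, rose by 4.89 ± 0.69 in Pirc (limma adjusted p = 0.00039) and by 3.70 ± 0.69 in wildtype rats (adjusted p = 0.00926), with no overlap between treated and untreated rats of either genotype. Both plasma carriers, Rbp4 and Ttr, had no call after DSS. Cd36, one of 3 measured membrane uptake genes, rose after DSS, by 1.98 ± 0.34 in Pirc rats and by 2.06 ± 0.34 in wildtype (limma adjusted p = 0.00153 and 0.00538).

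The third retinaldehyde dehydrogenase, Aldh1a3, rose in both genotypes. It lay between -6.31 and -6.05 in untreated Pirc rats and between -2.31 and -1.37 after DSS, a rise of 4.44 ± 0.53 (limma adjusted p = 0.000167). In wildtype rats it lay between -8.27 and -6.95, well above background in 1 of 4, and between -4.33 and -1.35 after DSS, a rise of 4.84 ± 0.53 (limma adjusted p = 0.000977). With Aldh1a2 and Aldh1a1, the DSS differences of the 3 enzymes in Pirc rats were 4.44, 3.27 and -3.45. Of the 3 measured genes of retinoic acid breakdown, Cyp26b1, which hydroxylates it, rose by 4.20 ± 0.87 in Pirc rats (limma adjusted p = 0.00494). It was well above background in only 1 of the 4 untreated Pirc rats, and with the common floor the difference was 3.17 (limma adjusted p = 0.00465). In wildtype rats, where it was well above background in 3 treated rats and 0 untreated ones, the measured difference was 3.41 ± 0.87 (limma adjusted p = 0.0426). With the common floor this was 2.22 and not called (limma adjusted p = 0.0725), and the call was also lost in most of the fits that left out 1 rat. Lrat, which esterifies retinol for storage, rose by 1.78 ± 0.54 in Pirc rats (limma adjusted p = 0.0384), a call lost when any 1 of 6 rats was left out, and was 1.99 ± 0.54 higher in Pirc than in wildtype rats after DSS (limma adjusted p = 0.0203), a call lost without DSS-treated Pirc rat 20 or DSS-treated wildtype rat 22. A second, dimmer Lrat probe differed by 0.07 and 0.62 in these comparisons. With both probes averaged the Pirc difference was 0.93 and not called (limma adjusted p = 0.0689). In wildtype rats the 2 probes differed after DSS by 0.15 and 0.23. The difference between the DSS effects, 1.63 ± 0.76, was not called (limma adjusted p = 0.468). Lrat was well above background in 2 untreated and 3 treated Pirc rats, and in 0 untreated and 1 treated wildtype rats.

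None of the 17 measured retinol and retinal dehydrogenases and reductases was called after DSS in either genotype by limma, and 1 in Pirc and 0 in wildtype rats passed the adjusted p at any size (3 and 2 had an unadjusted p under 0.05). Dhrs3, which returns retinal to retinol, was lower in Pirc than in wildtype rats after DSS by a difference of -1.11 ± 0.32 (limma adjusted p = 0.0276), a call lost without DSS-treated Pirc rat 12 or 20 or DSS-treated wildtype rat 22 or 26. Between untreated genotypes Dhrs3 differed by -0.64 ± 0.32, and its DSS effects differed by -0.47 ± 0.45. Neither was called. Bco2, a carotenoid-cleaving enzyme, fell by 1.47 ± 0.28 in Pirc rats (limma adjusted p = 0.00298), and so did Nrip1, a receptor corepressor, by 1.02 ± 0.27 (limma adjusted p = 0.0198), with a second, dimmer probe at -0.50. The Nrip1 call was lost without untreated Pirc rat 15 or 19 or DSS-treated Pirc rat 20. None of the 5 nuclear receptors listed beside Rara was called by limma after DSS in either genotype, and 1 in Pirc and 2 in wildtype rats had an unadjusted p under 0.05. The one in Pirc rats, Rxrb, a partner receptor of the RARs named here for its value, passed the adjusted p below the 2-fold minimum, at -0.47 ± 0.12 with no overlap (limma adjusted p = 0.0135). Rxra, also named for its value, was lower in untreated Pirc than wildtype rats without overlap, at -0.64 ± 0.19 (limma adjusted p = 0.272). After DSS this difference was -0.85 ± 0.19 without overlap, passing below the 2-fold minimum (limma adjusted p = 0.00805). Of the 5 receptors, 2 were higher in Pirc rats untreated and 1 after DSS.

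Of 5 measured genes that retinoic acid induces in many cell types, 3 were called higher in Pirc and 1 in wildtype rats. Rarres1 rose after DSS, by 3.25 ± 0.39 in Pirc rats and by 2.76 ± 0.39 in wildtype (limma adjusted p = 0.000168 and 0.00258), with no overlap in either genotype. Tgm2, a transglutaminase, rose by 4.74 ± 0.72 in Pirc rats (limma adjusted p = 0.000647) and differed by 2.59 ± 0.72 in wildtype rats, which did not pass (limma adjusted p = 0.0612). Rai14 was lower in Pirc than in wildtype rats after DSS by a difference of -1.31 ± 0.33 (limma adjusted p = 0.0142), though these groups overlapped. Between untreated genotypes Rai14 differed by -0.51 ± 0.33, and its DSS effects differed by -0.80 ± 0.46. Neither was called. Of the 3 gut homing receptors that retinoic acid induces in lymphocytes, Itga4 and Itgb7 rose in Pirc rats by 2.02 ± 0.40 and 1.92 ± 0.26, and Itgb7 in wildtype rats by 1.93 ± 0.26 (limma adjusted p = 0.00378, 0.000322 and 0.00222). Ccr9, the third, differed by 0.12 ± 0.22 in Pirc and -0.05 ± 0.22 in wildtype rats. All 3 were picked for mention once these values were known. Of 6 macrophage markers, 3 were called higher in Pirc and 2 in wildtype rats after DSS, among them Cd68 by 1.87 and 1.36 and Itgam by 2.47 and 1.93. Their summed signal, to which Cd14 gave the most, was 10.5 to 14.6 in untreated Pirc, 8.94 to 13.9 in DSS-treated Pirc, 8.66 to 11.5 in untreated wildtype and 8.24 to 15.3 in DSS-treated wildtype rats. Itgam was not well above background in any untreated Pirc rat. The part of leukocytes in the pathway results was not tested.

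**Figure D4:**
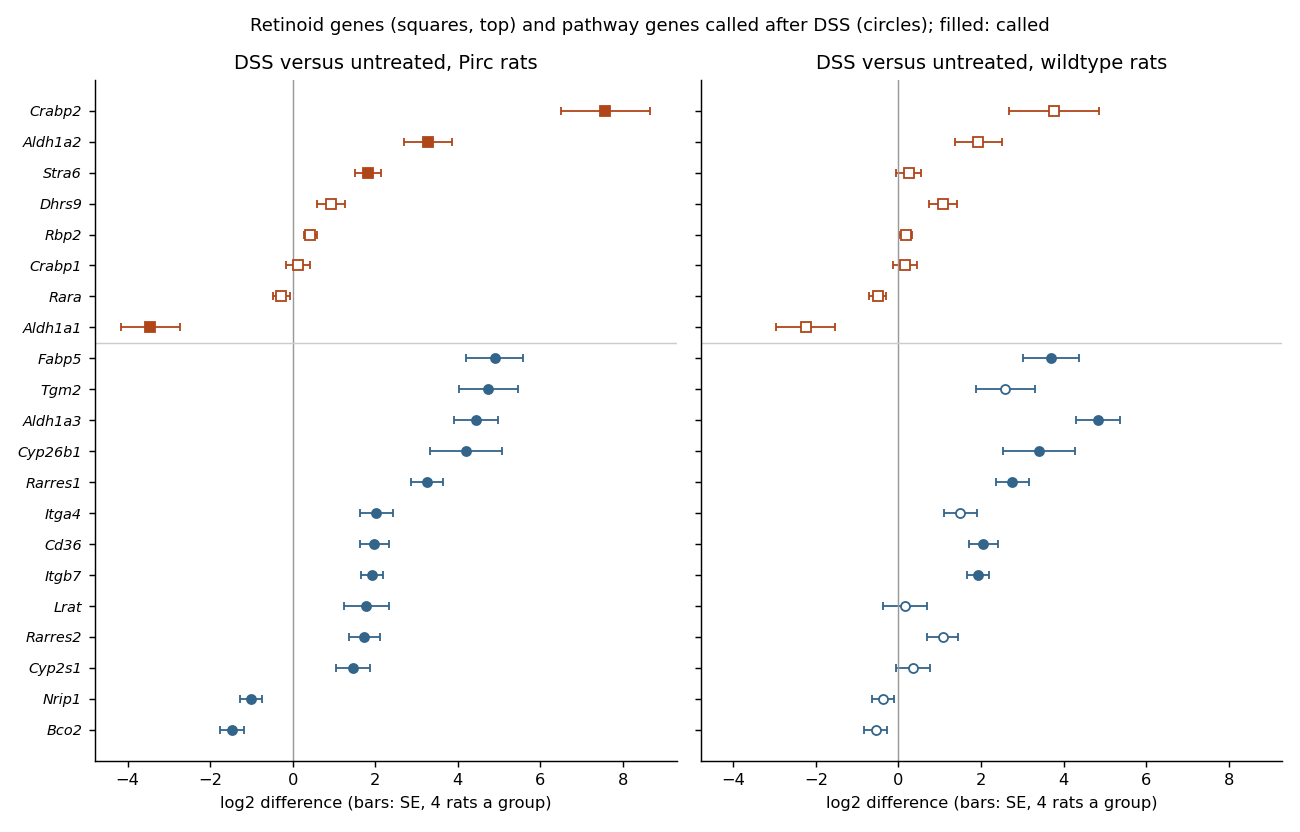
DSS difference (horizontal axis, log2; bars are standard errors, 4 rats a group) in Pirc and wildtype rats for the 8 retinoid genes (squares) and the 13 pathway genes called in either genotype (circles), filled where called. Aldh1a3 stood at 4.44 and 4.84. Lrat stood at 1.78 in Pirc and 0.15 in wildtype rats, and the difference between these, 1.63 ± 0.76, was not called. A second, dimmer Lrat probe, not drawn, stood at 0.07 and 0.23.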

How the data were processed

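RNA from 16 rats (4 groups of 4) was hybridised to 1-colour Agilent arrays. The authors deposited signal intensities as extracted and background-subtracted by Feature Extraction 10.7.3.1, per the file headers, and the processed intensity and the flags for spots above background were used here. Control spots and outlier-flagged spots were left out (25 probe values had no other spot). The log2 signal minus the log2 75th percentile of the array was averaged over spots of a probe, and a gene was represented by its brightest probe on average. Of 30367 probes, 18006 were named through RefSeq accessions; the other 12361 were kept unnamed. All 16 arrays were fitted in limma 3.58.1 (R 4.3.3) with 1 mean a group, and p-values were adjusted by Benjamini-Hochberg over all probes, after the script was tested on simulated data. The authors' methods used analysis of variance in Partek, so a fit without moderation was an alternative. Pathway genes are named where called, at most the 5 largest in each direction of a comparison. One gene of the pathway list is not reported here. The members and lists were chosen with earlier results of these data known. Scanning and hybridisation filled 2 slides of 8 arrays, each with 2 rats of every group, and the slide was also fitted as a block. Every group lay in 1 column of the slides, so for all genes and comparisons array column and group cannot be told apart. The number of rats limits the precision.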

Additional observations from a re-analysis of the deposited data

Results flagged for a closer look

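In 3 of 76 groups checked, 4 rats each for the 8 retinoid genes and 11 named pathway genes, 1 rat stood far from the other 3, and 3.8 such groups would arise by chance. Rara in untreated wildtype rat 21 was 0.30, beside 0.64 to 0.68 in the others. Tgm2 in DSS-treated Pirc rat 16 was 0.65, beside -1.43 to -1.18. Rai14 in DSS-treated Pirc rat 24 was -1.58, beside -2.10 to -2.03.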

How the results depend on the processing

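No retinoid gene's difference that was called changed direction under any of the 12 alternatives or without any 1 rat. Many of these alternatives could not have changed it. The blocks, the moderation, the groups fitted, the probe filter and averaging, and the minimum change left these differences as they were. Only other scaling or background steps, the common floor or kept flagged spots could alter them. The retinoid genes called after DSS in Pirc rats stayed within 1.5 times the count of 4 throughout, though Aldh1a2 was not called with normexp. In wildtype rats the count was 0, became 1 (Crabp2) with only bright probes tested, and ran from 0 to 2 without 1 rat. Between genotypes after DSS the count of 2 became 1 with normexp background correction, 0 with only the compared groups in the fit, and ran from 1 to 3 without 1 rat. In that comparison Aldh1a1 was also called with only bright probes tested, and Rara with no minimum change. Pathway genes called numbered 7 with normexp in place of 13 in Pirc rats after DSS. Between genotypes after DSS they numbered 8 in place of 3 with no minimum change, and ran from 1 (without DSS-treated Pirc rat 20) to 5 (without DSS-treated Pirc rat 16 or 24 or DSS-treated wildtype rat 14). The causes were not tested, beyond the fewer samples or probes that some alternatives hold. Of the dim genes, Aldh1a2 after DSS in Pirc rats moved from 3.27 to 0.45 with normexp and to 1.33 with a common floor, and Stra6 from 1.83 to 1.02 with normexp. Of 17 differences of named pathway genes, 18 tests among the alternatives and 26 without 1 rat lost their call. Quantile normalization lowered the share of higher calls among all calls from 73.8% to 63.2% in Pirc and from 85.5% to 72.6% in wildtype rats after DSS, and normexp that of the difference between DSS effects from 100% of 13 to 73.0% of 37. All calls with normexp after DSS numbered 982 and 232 in place of 2265 and 841, and 812 in place of 1660 between the genotypes. The median of all probes between genotypes after DSS was -0.11. The slide as a block made no change in the retinoid genes called. No paired analysis was possible because every rat has its own number. Only 4 rats a group, and signals near background for Crabp1, Aldh1a2, Cyp26b1 and Lrat, limit these values.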
